A study of Mus musculus with 6 samples.

Results

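Genes that mark the hair follicle bulge and its stem cells were compared in the skin of mice that had received regulatory T cells of 2 kinds. The set holds 10 genes, Krt15, Cd34, Lhx2, Lgr5, Lgr6, Lrig1, Sox9, Tcf7l1, Nfatc1 and Col17a1, each taken as the row of that symbol in a table of 35434 gene symbols. The samples were lesions of psoriasis mice, and all animals of both groups had the disease and a transfer of regulatory T cells (Tregs, CD4+ T cells that restrain immune responses). In the Ctrl-Treg group (n = 3) the transferred cells were control Tregs, and in the Lenv-Treg group (n = 3) they were Tregs treated with lenvatinib, an inhibitor of VEGF, FGF and other receptor tyrosine kinases. The strain, age and sex of the mice, the way the disease was induced, and the dose and timing of the transfer are not stated in the labels. Nothing in the labels ties the 3 samples of a group to separate animals, so every p-value here reflects sample-to-sample spread only, part of which may be technical. Skin of mice without the disease or without a transfer was not analysed here.

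Each hair follicle cycles through growth, regression and rest, and its stem cells lie in the bulge, the lasting part of the outer root sheath below the sebaceous gland. Bulge cells attach to the basement membrane like basal epidermal cells, express keratin 15 and, in mice, CD34, and are held in a resting state by transcription factors such as LHX2, SOX9, TCF7L1 and NFATc1. Cells marked by LGR5 lie in the lower bulge and hair germ and take part in hair growth, while cells marked by LGR6 or LRIG1 lie mainly above the bulge, near the sebaceous gland and the upper follicle.

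In Lenv-Treg skin, 8 of the 10 genes were lower than in Ctrl-Treg skin, and Nfatc1 and Col17a1 did not pass the test. The keratin gene Krt15 was 13.3-fold lower and the LIM-homeobox gene Lhx2 was 20.1-fold lower, as ratios of mean FPKM (fragment counts scaled to gene length and library depth). The receptor genes Lgr6 and Lgr5 were 7.34-fold and 5.05-fold lower, and Sox9, Lrig1, Tcf7l1 and Cd34 were between 2.03-fold and 2.67-fold lower. Tests were made with limma on log2(FPKM + 1), and a gene passed at a Benjamini-Hochberg adjusted p under 0.05 over 13945 genes. Of all tested genes, 30.8% were lower by that rule, so the members' share has to be read against a broad fall. A fall of at least 1 on the log2 scale that also passed the test was found for 7 of the 10 members and for 5.85% of all tested genes. None of the 10 rose, by limma, by limma at an unadjusted p under 0.05 (0 genes), or by voom on recovered reads (0 genes), while 11.0% of all tested genes rose.

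**Figure D1:**
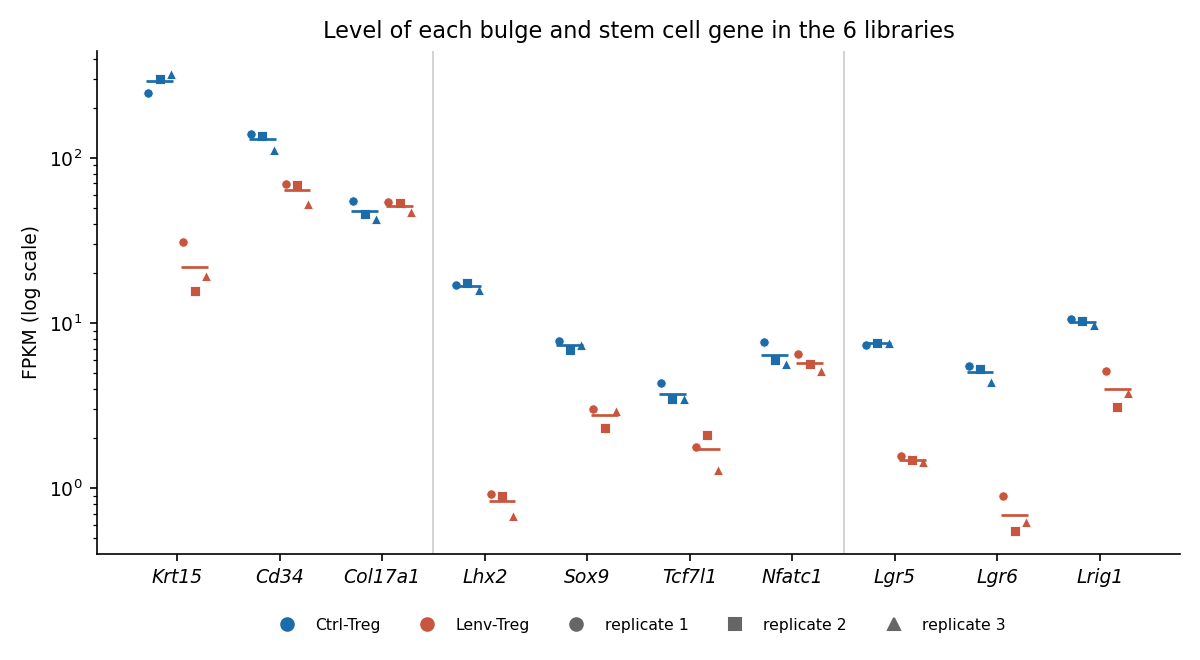
FPKM of the 10 genes in each library (log axis); points are libraries, symbol shapes the replicate numbers, and short lines the group means of 3 libraries. The Lenv-Treg points lie below all Ctrl-Treg points for 8 genes, and the groups overlap for Nfatc1 and Col17a1.

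The median difference (Lenv-Treg minus Ctrl-Treg, log2 scale) of the 10 genes was -1.17, and that of all tested genes was -0.17. After median-ratio scaling between libraries the medians were -0.99 and 0.00, and after rescaling to TPM they were -1.53 and -0.44. No Lenv-Treg library reached the lowest Ctrl-Treg library for 8 of the 10 genes, which held for 41.0% of all tested genes. In bulk skin, fewer cells of a type and less RNA per cell cannot be told apart. Recovered reads summed to between 38323440 and 39864820 per library, and each member had between 99 and 21573 reads in each library. The lowest, 99 reads of Lhx2 in Lenv-Treg replicate 3, has an exact Poisson 95% interval of 80.5 to 120.5, which covers counting error only. Together, the members' FPKM summed to 504.4, 538.6 and 532.2 in the Ctrl-Treg libraries and to 174.2, 153.0 and 134.9 in the Lenv-Treg libraries.

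The 250 bases before the start site of 4 of the genes that fell are shown, so that their start regions can be compared. They come from the RefSeq table of GRCm38.p6, which held 6 of the 10 members; Krt15, Lgr5, Sox9 and Nfatc1 were not among them. Each is written 5′ to 3′ on the gene's own strand, and capitals mark matches, on either strand, to ACAAT (a core bound by SOX factors) or GGAAA (a core bound by NFAT factors), which appear as ATTGT and TTTCC where the match is on the other strand.
Lhx2, chr2:38339031-38339280, plus strand: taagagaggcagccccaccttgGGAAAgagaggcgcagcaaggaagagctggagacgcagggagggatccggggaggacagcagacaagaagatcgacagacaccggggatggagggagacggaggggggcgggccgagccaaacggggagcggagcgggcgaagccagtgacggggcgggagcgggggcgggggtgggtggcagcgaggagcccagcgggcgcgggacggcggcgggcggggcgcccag
Lgr6, chr1:135105277-135105526, minus strand: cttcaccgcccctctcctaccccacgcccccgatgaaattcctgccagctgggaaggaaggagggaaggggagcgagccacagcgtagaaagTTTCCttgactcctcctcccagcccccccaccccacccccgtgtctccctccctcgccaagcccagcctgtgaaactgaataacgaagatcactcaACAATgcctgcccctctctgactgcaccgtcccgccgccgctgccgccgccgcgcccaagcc
Cd34, chr1:194938571-194938820, plus strand: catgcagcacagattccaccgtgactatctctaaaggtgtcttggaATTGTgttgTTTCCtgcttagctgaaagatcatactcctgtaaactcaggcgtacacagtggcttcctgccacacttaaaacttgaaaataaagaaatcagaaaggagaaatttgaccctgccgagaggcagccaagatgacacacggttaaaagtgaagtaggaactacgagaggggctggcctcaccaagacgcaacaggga
Lrig1, chr6:94700146-94700395, minus strand: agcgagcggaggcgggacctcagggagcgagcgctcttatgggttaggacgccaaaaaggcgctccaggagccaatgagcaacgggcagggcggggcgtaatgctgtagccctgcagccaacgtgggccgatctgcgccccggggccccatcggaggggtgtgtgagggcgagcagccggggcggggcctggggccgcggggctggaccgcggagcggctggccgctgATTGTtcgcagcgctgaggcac

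The Lhx2 window had 72.8% G and C and 25 CpG pairs, the Lrig1 window 71.6% and 26, and the Lgr6 window 65.2% and 16. The Cd34 window stood nearer to the other windows of the table, with 46.4% and 6 CpG pairs against a median of 52.4% and 6 over 32851 windows. ACAAT was found in the windows of Cd34, Lgr6 and Lrig1, and in 27.7% of all windows. GGAAA was found in those of Cd34, Lgr6 and Lhx2, in the windows of Col17a1 and of a second Lhx2 start site, and in 55.6% of all windows. The TCF/LEF core CTTTGT lay in the window of Tcf7l1 and in 16.5% of all windows. Tcf7l1 also fell, but its window, which held neither ACAAT nor GGAAA, is not among those shown. None of the 7 member windows held CTTTGA (13.8% of all windows, the other TCF/LEF core searched), the LHX core TAATTA (4.84%) or the AP-1 site TGACTCA (4.46%). No marked match overlaps another in the windows shown. By the GENCODE annotation of that build, the second Lhx2 window lies wholly in exon (250 bases), and 209 bases of the Tcf7l1 window, 52 of the Col17a1 window, 13 of the Lrig1 window and 2 of the Cd34 window are exonic. A match describes letters in a window and not a bound site.

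Among the structural and adhesion genes, Krt15 stood apart. Krt15 codes for a type I keratin of basal keratinocytes that is most abundant in the bulge. Its FPKM was 248.6, 299.7 and 324.1 in the Ctrl-Treg libraries and 30.79, 15.72 and 19.17 in the Lenv-Treg libraries. The groups did not overlap, and the highest Lenv-Treg library, replicate 1, was still far under every Ctrl-Treg library. The means were 291 ± 38.5 and 21.9 ± 7.90 FPKM (SD, n = 3 each), and the log2 difference was -3.72 (SE 0.23, limma adjusted p = 6.7e-05). Only 0.3% of all tested genes had a lower difference. Krt15 made up 49.28%, 55.64% and 60.89% of the members' summed FPKM in the Ctrl-Treg libraries and 17.68%, 10.27% and 14.21% in the Lenv-Treg libraries.

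The keratins Krt14 and Krt5 of the basal layer, each at 610.9 FPKM or more in every library as the label skin implies, moved the opposite way. Krt14, the type I keratin of all basal keratinocytes, had 769 ± 156 FPKM in Ctrl-Treg against 4428 ± 139 in Lenv-Treg skin, a log2 difference of 2.54 (limma adjusted p = 0.00018). Per library, the ratio of Krt15 to Krt14 FPKM was 0.2693, 0.4906 and 0.4185 in Ctrl-Treg against 0.00697, 0.003438 and 0.004465 in Lenv-Treg skin. These ratios did not overlap (exact permutation test, two-sided, n = 3 per group, p = 0.1, the smallest that 3 against 3 allows). The rise of Krt14 is part of this ratio, and the share of all tested genes that did not overlap on it was not computed. Both are type I keratin genes of related sequence, and how reads matching both were counted is not given in the sources used. The ratio of Krt15 to Krt5, the type II partner keratin of the basal layer, which itself rose from 865 ± 74.3 to 1629 ± 75.7 FPKM (log2 difference 0.91, limma adjusted p = 0.0040), was 0.338 ± 0.0537 in Ctrl-Treg against 0.0134 ± 0.00457 in Lenv-Treg skin.

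Cd34 codes for a sialomucin on the surface of mouse bulge cells that is also found on endothelial cells, dermal fibroblasts and mast cells. Its FPKM was 140.5, 136.2 and 111.5 in the Ctrl-Treg libraries and 69.79, 68.27 and 52.79 in the Lenv-Treg libraries. Replicate 3 was the lowest of each group, and the groups did not overlap. Cd34 thus fell by 1.02 on the log2 scale (SE 0.15, limma adjusted p = 0.0017), a 2.03-fold lower mean.

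Markers of the other cell types that carry CD34 did not all move with it. Of 11 endothelial genes, 2 were higher (Tie1 and Emcn, the first lost without Ctrl-Treg replicate 2 or 3 or Lenv-Treg replicate 1, 2 or 3, the second without Lenv-Treg replicate 1 or 3, and both after rescaling to TPM or without the filter on low values) and 0 lower (0 at an unadjusted p under 0.05, 0 by voom). After median-ratio scaling 5 were higher. Their summed FPKM ran from 107.2 to 169.3 in Ctrl-Treg and from 176.4 to 226.9 in Lenv-Treg skin. Of 10 fibroblast genes, 5 were lower (3 without Ctrl-Treg replicate 1, Lenv-Treg replicate 2 or Lenv-Treg replicate 3) and 0 higher (0 at an unadjusted p under 0.05, 0 by voom), and their sum ran from 5185 to 6406 in Ctrl-Treg and from 2896 to 3906 in Lenv-Treg skin. After median-ratio scaling 3 of the fibroblast genes were lower, after rescaling to TPM 8, and by voom 4. Among them the collagen gene Col1a1 was lower (1134 ± 216 and 304 ± 125 FPKM, log2 difference -1.96, limma adjusted p = 0.0018) and the proteoglycan gene Dcn did not pass (1115 ± 122 and 1273 ± 186 FPKM, 0.19, adjusted p = 0.45). Of 8 mast cell genes, 2 were higher and 1 lower, with sums of 200.1 to 283.1 and 263.8 to 412.0 FPKM. No marker of these 3 lists was listed at 0 in any library.

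Set against the mean log2 level of the endothelial genes in the same library, Cd34 was at 3.38, 3.34 and 3.67 in Ctrl-Treg against 2.03, 2.34 and 1.97 in Lenv-Treg skin, a difference of -1.35. Against the fibroblast genes it was at -0.92, -0.78 and -1.02 and at -1.26, -1.21 and -1.23, a difference of -0.33. Neither comparison overlapped between groups (exact permutation test, two-sided, n = 3 per group, p = 0.1 for each, the smallest possible). The share of all tested genes that did not overlap on these scales was not computed. Between groups the mean log2 level of the endothelial genes differed by 0.33 and that of the fibroblast genes by -0.69, and these shifts are part of the values above. The part of fibroblasts in the fall of Cd34 was not tested.

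Col17a1 codes for collagen XVII, a transmembrane protein of the hemidesmosomes that hold bulge stem cells and basal epidermal cells to the basement membrane. Its FPKM was 55.02, 45.87 and 42.56 in the Ctrl-Treg libraries and 53.85, 52.95 and 47.19 in the Lenv-Treg libraries, and the groups overlapped. The log2 difference was 0.11 (95% interval -0.18 to 0.39, limma adjusted p = 0.51), and its sign turned to -0.18 after rescaling to TPM. The interval leaves out a fall of the size seen for Cd34. Of 15 genes of basal keratinocytes and hemidesmosomes, 8 were higher (5 after rescaling to TPM), among them Itga6 (21.9 ± 2.69 and 40.7 ± 1.18 FPKM), the integrin partner at these junctions, and 1 was lower (4 after rescaling to TPM). The 1 fall without rescaling, of Dst, was named after its values were seen and was lost without Ctrl-Treg replicate 1, Ctrl-Treg replicate 2, Lenv-Treg replicate 2 or Lenv-Treg replicate 3. The Dst call was also lost after median-ratio scaling, after quantile normalization and without the filter on low values.

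The 4 transcription factor genes ranged from the largest ratio of the set to no detectable change. Lhx2 codes for a LIM-homeobox factor that keeps bulge stem cells at rest. Its FPKM was 16.99, 17.36 and 15.93 in the Ctrl-Treg libraries and 0.9205, 0.9008 and 0.6763 in the Lenv-Treg libraries. The libraries within each group lay close together, and the groups were far apart. The means were 16.8 ± 0.742 and 0.833 ± 0.136 FPKM, and the log2 difference was -3.28 (SE 0.10, limma adjusted p = 1.5e-05). In rank of level among all tested genes, Lhx2 went from above 72.3% of them in Ctrl-Treg to above 10.6% in Lenv-Treg skin. The 20.1-fold ratio of means is larger than the log2 difference gives, because a pseudocount of 1 is above the Lenv-Treg level.

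Sox9 codes for an HMG-box factor needed for bulge cells to form and persist. Its FPKM was 7.779, 6.904 and 7.353 in the Ctrl-Treg libraries and 3.023, 2.325 and 2.911 in the Lenv-Treg libraries, without overlap. Sox9 fell by 1.16 on the log2 scale (SE 0.11, limma adjusted p = 0.00026), a 2.67-fold lower mean. The ratio of Lhx2 to Sox9 FPKM went from 2.184, 2.515 and 2.167 in the Ctrl-Treg libraries to 0.3045, 0.3874 and 0.2323 in the Lenv-Treg libraries, so Lhx2 was above Sox9 in every Ctrl-Treg library and below it in every Lenv-Treg library (exact permutation test, two-sided, n = 3 per group, p = 0.1, the smallest possible).

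Tcf7l1, long known as Tcf3, codes for a factor of the TCF/LEF family that represses targets of Wnt signalling in bulge cells. Its FPKM was 4.302, 3.453 and 3.461 in the Ctrl-Treg libraries and 1.771, 2.09 and 1.286 in the Lenv-Treg libraries. This was the lowest member of Ctrl-Treg skin, and the groups did not overlap. Tcf7l1 fell by 0.81 on the log2 scale (SE 0.14, limma adjusted p = 0.0033) and had a 2.18-fold lower mean.

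Nfatc1 codes for a calcineurin-dependent factor that holds bulge stem cells in quiescence and also acts in lymphocytes and endothelium. Its FPKM was 7.685, 5.993 and 5.632 in the Ctrl-Treg libraries and 6.454, 5.619 and 5.089 in the Lenv-Treg libraries. The groups overlapped, and replicate 1 was the highest of each. The log2 difference was -0.14 (95% interval -0.45 to 0.17, limma adjusted p = 0.42), and its sign turned to 0.04 after median-ratio scaling. Of 7 tested T cell genes, 2 were lower and 0 higher (0 at an unadjusted p under 0.05, 0 by voom), beside 30.8% of all tested genes lower. With the untested Cd8a, their sums were 16.90 to 24.49 FPKM in Ctrl-Treg against 11.40 to 17.89 in Lenv-Treg skin, and none was at 0 in any library. The part of T cells and endothelium in the level of Nfatc1 was not tested.

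Relatives and partners of these factors were also read. Of 19 tested genes of the LHX, SOX, TCF and NFAT families and their cofactors, 10 were lower (6 after median-ratio scaling) and 1 higher, with a median log2 difference of -0.34. Lef1, the TCF/LEF factor of hair germ and matrix, fell from 6.77 ± 2.39 to 0.142 ± 0.0307 FPKM (log2 difference -2.71, limma adjusted p = 0.00018). Tcf7l2 fell from 3.14 ± 0.229 to 1.51 ± 0.195 FPKM (-0.73, adjusted p = 0.0013), and the ratio of Tcf7l1 to Tcf7l2 was 1.202 ± 0.252 and 1.175 ± 0.423 (exact permutation test, n = 3 per group, p = 1.0). Sox21, a factor of the hair shaft cuticle, fell from 18.0 ± 3.27 to 4.08 ± 1.46 FPKM (-1.93, adjusted p = 0.00053). The 1 rise, of Lhx6, was lost without Ctrl-Treg replicate 3, Lenv-Treg replicate 1 or Lenv-Treg replicate 2. It was also lost after rescaling to TPM and without the filter on low values. Like Nfatc1, its relatives Nfatc2, Nfatc4 and Nfat5 did not pass the test (log2 differences -0.24, -0.35 and -0.15), and Nfatc3 passed at -0.32 in the full fit but not when Ctrl-Treg replicate 1, 2 or 3 or Lenv-Treg replicate 2 or 3 was left out. The Nfatc3 call was also lost after median-ratio scaling (-0.13, limma adjusted p = 0.284) and after quantile normalization.

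**Figure D2:**
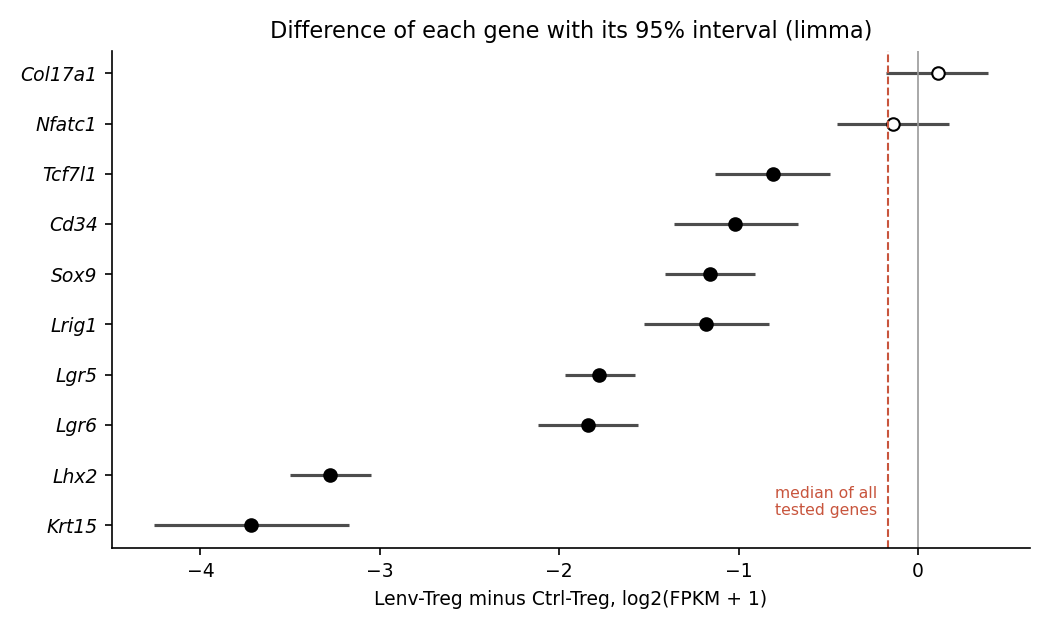
Log2 difference of each gene with its 95% limma interval; filled points passed the test, open points did not, and the dashed line is the median of all tested genes at -0.17. The intervals of Lhx2 and Krt15 lie wholly below those of the other members, and those of Nfatc1 and Col17a1 include 0.

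The 3 leucine-rich repeat receptor genes all fell. Lgr5 and Lgr6 code for receptors of R-spondins, secreted proteins that strengthen Wnt signalling by removing the ubiquitin ligases RNF43 and ZNRF3. Lgr5 had 7.389, 7.588 and 7.574 FPKM in the Ctrl-Treg libraries and 1.556, 1.477 and 1.431 in the Lenv-Treg libraries. It had the narrowest spread of the set, with coefficients of variation of 1.48% in Ctrl-Treg and 4.25% in Lenv-Treg skin, and the groups did not overlap. The log2 difference was -1.78 (SE 0.08, limma adjusted p = 2.7e-05).

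Lgr6 had 5.523, 5.277 and 4.382 FPKM in the Ctrl-Treg libraries and 0.8922, 0.5512 and 0.6239 in the Lenv-Treg libraries. The groups did not overlap, and the log2 difference was -1.84 (SE 0.12, limma adjusted p = 7.2e-05). The ratio of Lgr5 to Lgr6 FPKM was 1.338, 1.438 and 1.728 in the Ctrl-Treg libraries and 1.744, 2.679 and 2.293 in the Lenv-Treg libraries. The lowest Lenv-Treg ratio was only just above the highest Ctrl-Treg ratio (exact permutation test, two-sided, n = 3 per group, p = 0.1, the smallest possible).

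Other genes of the R-spondin pathway followed the same direction, with 7 of 8 tested genes lower and 0 higher (0 at an unadjusted p under 0.05, 0 by voom). Their median log2 difference was -0.93, and it was -0.77 after median-ratio scaling. Lgr4, the widely expressed receptor of the same family, had 16.75, 18.52 and 18.07 FPKM in Ctrl-Treg against 6.74, 4.947 and 4.924 in Lenv-Treg skin (log2 difference -1.53, limma adjusted p = 0.00017). The ratio of Lgr5 to Lgr4 was 0.423 ± 0.0161 in Ctrl-Treg against 0.273 ± 0.0370 in Lenv-Treg skin, and that of Lgr6 to Lgr4 was 0.286 ± 0.0436 and 0.124 ± 0.0108. Both ratios were lower in every Lenv-Treg library than in any Ctrl-Treg library (exact permutation test, n = 3 per group, p = 0.1 for each, the smallest possible).

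Of the ligands, Rspo3 had 3.358, 4.666 and 3.212 FPKM in Ctrl-Treg against 0.5844, 0.5494 and 0.4635 in Lenv-Treg skin (log2 difference -1.62, limma adjusted p = 0.00015). Rspo1 had 6.48 ± 1.67 and 2.73 ± 0.381 FPKM (-0.98, adjusted p = 0.0041), and Rspo2 and Rspo4 were below the filter on low values. Rspo2 had 0.254, 0.4777 and 0.5532 FPKM in the Ctrl-Treg libraries, and 1 or 2 reads (at most 0.00487 FPKM) in each Lenv-Treg library. The exact permutation test (two-sided, n = 3 per group) gave p = 0.1 for Rspo2, the smallest possible, and p = 0.3 for Rspo4. The ligase genes Rnf43 and Znrf3 fell by 0.84 and 0.87 on the log2 scale (2.45-fold and 2.55-fold lower means, against 2.38-fold for Rspo1). The Wnt receptor gene Fzd5 fell by 1.40, the co-receptor gene Lrp5 did not pass (-0.23, adjusted p = 0.25), and the call for Lrp6 (-0.42) was lost without Ctrl-Treg replicate 1 or 2 or Lenv-Treg replicate 2 or 3. The Lrp6 call was also lost after median-ratio scaling, after quantile normalization, without the variance trend and without the filter on low values.

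Lrig1 codes for a transmembrane protein that restrains EGF receptor signalling and marks stem cells of the upper follicle. It had 10.59, 10.26 and 9.767 FPKM in the Ctrl-Treg libraries and 5.131, 3.115 and 3.782 in the Lenv-Treg libraries. The groups did not overlap, and Lenv-Treg replicate 1 stood above the other Lenv-Treg libraries. Lrig1 fell by 1.18 on the log2 scale (SE 0.15, limma adjusted p = 0.00091). Exons of Slc25a26, listed at 2.69 to 3.95 FPKM, overlap those of Lrig1 on the opposite strand by 144 bases, and whether the counting used strand is not stated. The genes on the opposite strand of Cd34 and Tcf7l1, Gm16897 and Gm15401, did not exceed 0.353 and 0.26 FPKM.

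Of its relatives, Lrig3 fell from a mean of 12.6 to 5.87 FPKM (limma adjusted p = 0.0015), and Lrig2 did not pass (-0.05). The list of EGF receptor (ERBB) family genes and LRIG relatives had 11 tested genes, of which 4 were higher and 2 lower. Egfr (-0.24, limma adjusted p = 0.10) and Erbb3 (-0.01, adjusted p = 0.97) did not pass. The call for the fall of Erbb2 (-0.34) was lost in 6 alternatives, and that for the rise of Errfi1 (0.44) in 7. Of 5 ligands of the EGF receptor on the list, 3 rose, and Ereg (0.67, limma adjusted p = 0.105) and Btc (0.34, adjusted p = 0.26) did not pass. Areg rose from 3.66 ± 0.745 to 28.4 ± 8.79 FPKM (2.63, adjusted p = 0.00016), Hbegf from 4.59 ± 0.877 to 37.0 ± 12.6 FPKM (2.73, adjusted p = 0.00019) and Tgfa from 5.86 ± 0.559 to 12.0 ± 1.19 FPKM (0.92, adjusted p = 0.00068).

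The order of the members' levels differed between the groups. In Ctrl-Treg skin it ran Krt15, Cd34, Col17a1, Lhx2, Lrig1, Lgr5, Sox9, Nfatc1, Lgr6 and Tcf7l1 by mean FPKM, and only the neighbours Lgr5 and Sox9, and Sox9 and Nfatc1, overlapped in range. In Lenv-Treg skin it ran Cd34, Col17a1, Krt15, Nfatc1, Lrig1, Sox9, Tcf7l1, Lgr5, Lhx2 and Lgr6, with overlap between Cd34 and Col17a1, Nfatc1 and Lrig1, Tcf7l1 and Lgr5, and Lhx2 and Lgr6. Within the Lenv-Treg group, replicate 1 was the highest library for 9 of the 10 genes and replicate 3 the lowest for 6. Within the Ctrl-Treg group, replicate 1 was the highest for 7 genes and the lowest for Krt15 and Lgr5.

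That same Ctrl-Treg library was the lowest for products of the growing hair. The summed FPKM of 21 inner root sheath and hair shaft genes was 1612, 3486 and 3638 in the Ctrl-Treg libraries, a highest-to-lowest ratio of 2.26, while for the members this ratio in Ctrl-Treg skin lay between 1.03 (Lgr5) and 1.36 (Nfatc1). In the Lenv-Treg libraries the hair sum was 11.66, 28.11 and 14.97. Krt31 and Krt33a, named after their values were seen, had no read in any Lenv-Treg library. All 21 of those genes were lower by limma (median log2 difference -4.43, a larger fall than that of any member). The stage of the hair cycle of these samples is not stated in the labels, and its part in the members' falls was not tested.

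Each member was also set against the mean log2 level of 15 basal keratinocyte genes in the same library, a mean that was itself 0.51 higher in Lenv-Treg skin (4.82 and 5.33). That rise enters every difference on this scale in full. Their summed FPKM was 1725 to 2157 in Ctrl-Treg against 6363 to 6507 in Lenv-Treg skin, with none at 0 in any library. On this scale all 10 members were lower in every Lenv-Treg library, as were 78.5% of all tested genes. Krt15 went from 3.03, 3.43 and 3.62 to -0.30, -1.33 and -0.97, a difference of -4.23. Lhx2 differed by -3.79, Lgr6 by -2.35, Lgr5 by -2.28, Lrig1 by -1.69, Sox9 by -1.67, Cd34 by -1.53 and Tcf7l1 by -1.32. Nfatc1 and Col17a1, which overlapped between groups in FPKM, differed by -0.65 and -0.40, values that include the 0.51 of the reference genes. For each gene the exact permutation test (two-sided, n = 3 per group) gave p = 0.1, the smallest it can give.

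**Figure D3:**
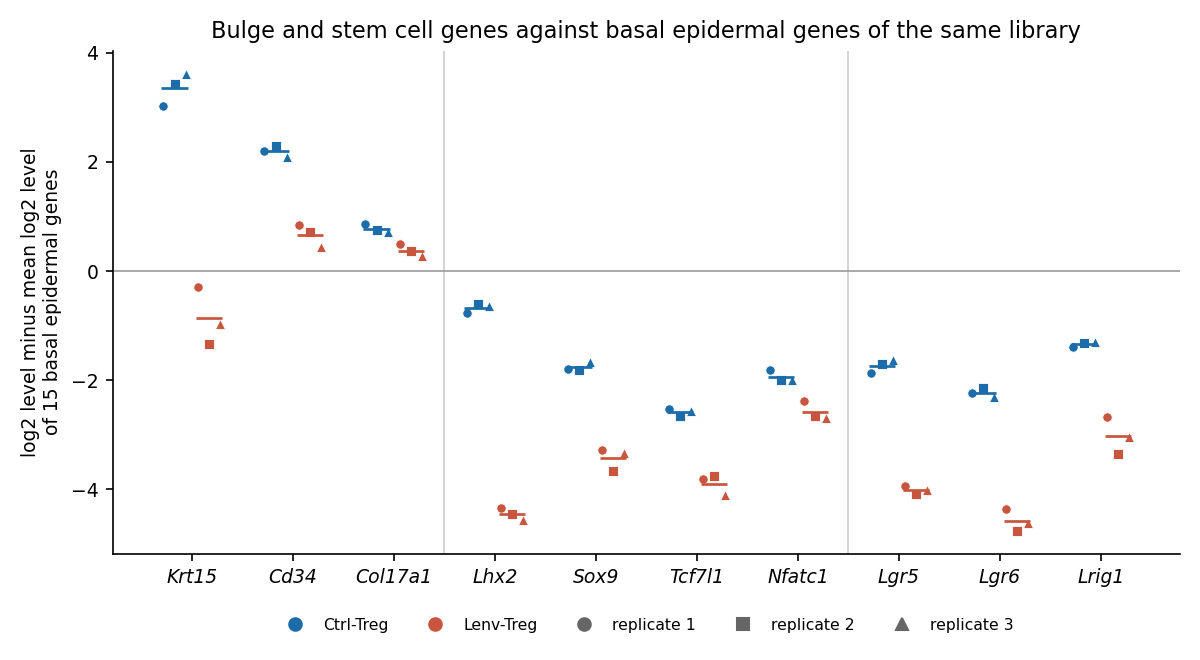
Log2(FPKM + 1) of each gene minus the mean over 15 basal epidermal genes of the same library; points are libraries, symbol shapes the replicate numbers, and short lines the group means. Krt15 lies above 0 in all Ctrl-Treg and below 0 in all Lenv-Treg libraries, and the smallest separation is that of Col17a1, at 0.72 to 0.87 against 0.28 to 0.49.

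Other genes known from the bulge moved in both directions. Of 23 tested, 14 were lower and 4 higher, with a median log2 difference of -0.78 (-0.59 after median-ratio scaling). The lower count was 13 after median-ratio scaling and 12 without the filter on low values. After rescaling to TPM 19 were lower and 3 higher. Gli1, a Hedgehog-responsive factor of the lower and upper bulge, had 16.79, 21.39 and 20.07 FPKM in Ctrl-Treg against 0.6763, 1.045 and 0.5723 in Lenv-Treg skin (-3.53, limma adjusted p = 1.7e-05). Tbx1, a T-box factor of bulge stem cells, fell from 10.6 ± 1.51 to 1.21 ± 0.316 FPKM (-2.40, adjusted p = 5.5e-05), and Id3, a BMP-responsive gene, from 84.7 ± 12.1 to 48.0 ± 3.66 FPKM (-0.80, adjusted p = 0.0028). The 4 that rose were Tnc, Gas1, Itga6 and Hopx, of which Tnc and Gas1 were named after their values were seen. The matrix gene Tnc rose from 5.42 ± 1.44 to 40.2 ± 17.7 FPKM, and the call for Hopx was lost after rescaling to TPM and without Ctrl-Treg replicate 1, Ctrl-Treg replicate 2 or Lenv-Treg replicate 2.

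Compartments next to the bulge were read from lists of their own. Of 15 hair germ and matrix genes, 12 were lower and 0 higher (0 at an unadjusted p under 0.05, 0 by voom), with a median of -2.62, and Hoxc13, a factor of hair shaft keratins, fell from 17.5 ± 5.65 to 0.243 ± 0.0715 FPKM (-3.85, limma adjusted p = 4.9e-05). Of 15 dermal papilla genes, 10 were lower and 1 higher (2 without Ctrl-Treg replicate 3), with a median of -0.66. Of 7 upper follicle genes, 2 were lower (0 without Lenv-Treg replicate 2) and 2 higher (1 in the fit without any 1 of Ctrl-Treg replicates 2 and 3 and Lenv-Treg replicates 1, 2 and 3), with a median of -0.01. The difference between these lists was not tested.

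**Figure D4:**
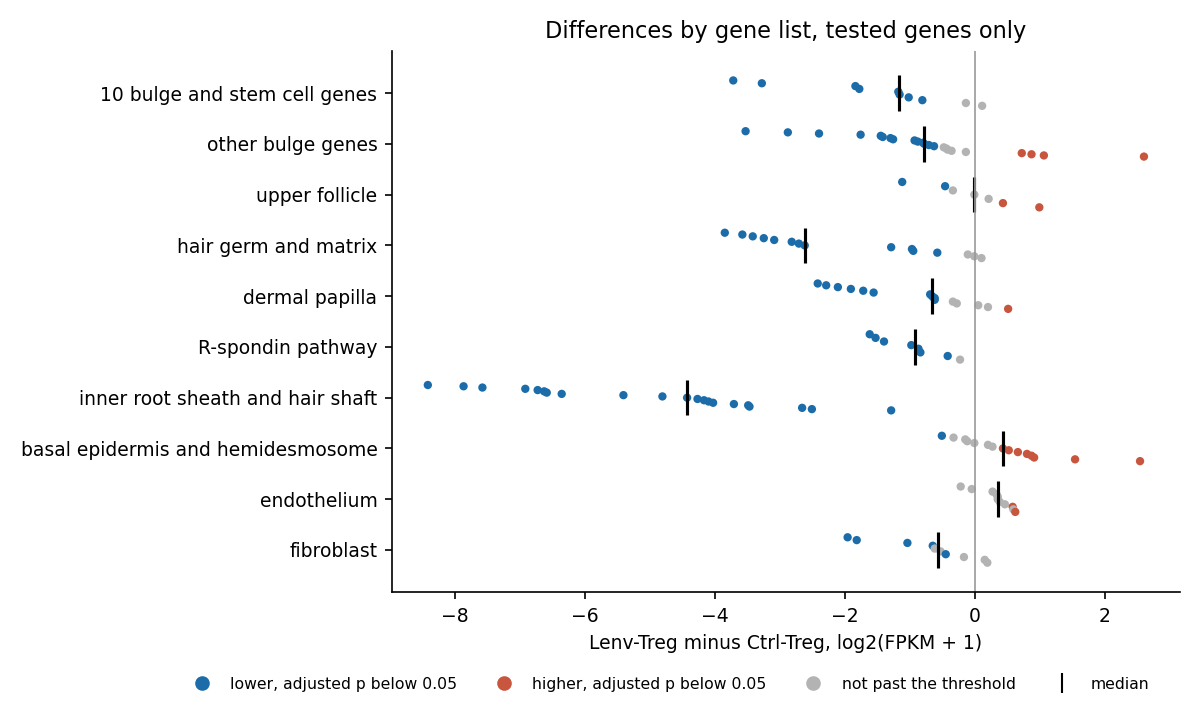
Log2 differences of tested genes, 1 row per list; blue points were lower and red points higher by limma, grey points did not pass, and black bars are medians. The members' median of -1.17 lies between that of the other bulge genes at -0.78 and that of hair germ and matrix genes at -2.62, and upper follicle genes centre near 0.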

How the data were processed

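Per the labels, total RNA from skin was made into RNA-seq libraries, 3 per group. The authors deposited FPKM values in 1 table of gene symbols, on build GRCm39 per the submitters' processing notes. For the aligner, counter, annotation and use of strand, nothing is given in the sources used here. FPKM steps were whole multiples of 1 read, and whole reads (tolerance 0.005 plus 1.5e-07 of the count) were recovered for 13945 of 13945 tested genes; their sums give the depth.

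Genes with at least 0.5 FPKM in at least 3 of 6 samples were tested with limma 3.58.1 in R 4.3.3 (lmFit, eBayes with trend, two-sided, no covariates) on log2(FPKM + 1), with Benjamini-Hochberg adjustment over all 13945 genes and a threshold of 0.05; all 10 members passed the filter. The pseudocount of 1 understates changes of low genes. Values within a library were compared with exact permutation tests (scipy 1.17.1). The code was tested on simulated data. Members and gene lists were chosen with earlier results of these data known. All 10 members are named. Of each other list, up to 4 genes are named (the 2 of highest mean FPKM and the 2 others of smallest p). Any gene of the R-spondin pathway, of the factor families and of the list of ERBB receptors and LRIG relatives could also be named. Itga6, Lef1, Sox18, Gata3, S100a8 and S100a9 are each on 2 lists and Sox10 is on 3. Alternatives were other pseudocounts, filters, scalings, voom on recovered reads, a stricter threshold, a replicate block and leaving out each library. Motifs were sought in the RefSeq promoter windows of GRCm38.p6, another build than that of the table.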

Additional observations from a re-analysis of the deposited data

How the results depend on the processing

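For the 8 members that fell, direction and call held under every alternative run, with a largest adjusted p of 0.022 (Tcf7l1), and no fold moved over 1.5 times when a library was left out. Nfatc1 and Col17a1 passed under none of them. The members' median of -1.17 became -0.99 with median-ratio scaling, -1.37 with a pseudocount of 0.1, -1.53 as TPM and -1.40 with voom. Counts over all genes (5821 calls, 4289 lower and 1532 higher) moved far more. With median-ratio scaling 2417 were lower and 2417 higher, with quantile normalization 2304 were lower and 2232 higher, as TPM 8917 were called (7970 lower, 947 higher), and at a threshold of 0.01 3171 were called (2246 lower, 925 higher). Leaving out 1 library gave between 2780 lower genes (without Lenv-Treg replicate 2) and 3900 (without Lenv-Treg replicate 1). The replicate numbers were given in accession order, and the values did not settle whether they pair the samples. Deviations of same-numbered libraries correlated at 0.20, -0.01 and 0.33. Those of Ctrl-Treg replicate 1 with Lenv-Treg replicate 3 correlated at -0.25, and those of Ctrl-Treg replicate 3 with Lenv-Treg replicate 1 at -0.28. Replicates 1 and 3 of each group correlated best with their own number in the other group, and replicate 2 did not. A replicate block gave 5907 calls. Depth did not limit the members, the lowest of which had 99 reads, but the number of samples limits the precision.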

Other observations

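Pigment cells of the follicle, which share the bulge and hair germ with the keratinocyte stem cells, were read from 7 marker genes, of which 6 were lower in Lenv-Treg skin and 0 higher by limma (0 at an unadjusted p under 0.05, 0 by voom). Dct, an enzyme of melanin synthesis that also marks melanocyte stem cells, had 51.79, 67.68 and 80.9 FPKM in the Ctrl-Treg libraries and 2.83, 2.558 and 1.964 in the Lenv-Treg libraries (log2 difference -4.28, limma adjusted p = 1.7e-05). Of 10 cell cycle genes, 7 were lower and 0 higher (0 at an unadjusted p under 0.05, 0 by voom), and the proliferation marker Mki67 fell from 21.2 ± 1.71 to 8.65 ± 1.19 FPKM (-1.21, adjusted p = 0.00035). Of 11 genes of wounded or stressed keratinocytes, 9 were higher and 0 lower (0 at an unadjusted p under 0.05, 0 by voom), among them Krt6a, a keratin induced in hyperproliferative epidermis, at 64.2 ± 31.8 and 2111 ± 434 FPKM (5.11, adjusted p = 7.7e-05). S100a8 and S100a9 are among these 9 and are also neutrophil genes. Of 12 neutrophil and macrophage genes, 8 were higher and 1 lower (0 lower without Lenv-Treg replicate 2 or 3), with sums, S100a8 and S100a9 included, of 1053 to 1530 FPKM in the Ctrl-Treg libraries and 39420 to 55200 in the Lenv-Treg libraries. The neutrophil gene Retnlg rose from 1.89 ± 0.489 to 256 ± 94.7 FPKM (6.43, limma adjusted p = 1.7e-05). The part of any of these in the members' values was not tested.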
